A study of Oryza sativa with 15 samples.

Results

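The regions described here are the CpG differentially methylated regions (DMRs) that hold 10 or more CpGs in the authors' lists of 3 rice lines, each set against the wild type. They were taken by the class CpG and the listed number of CpGs alone. In total 281 of the 11125 CpG regions met this rule, which is 2.53%, and the 3 lists together hold 11392 regions. Of them 144 of 4962 were listed for CK (2.90%), 43 of 2715 for SDWT (1.58%) and 94 of 3448 for pOsNAR2.1-OsNAR2.1 (2.73%). The rule used no methylation value. However, the authors listed a region only after calling it as different between the line and WYJ7, so direction and size of that difference are given as a description, with no test.

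Whole-genome bisulfite sequencing (WGBS) was done on shoots of 10-day-old seedlings, in 12 libraries, 3 for each group. CK was the T0 generation of plants regenerated from callus of WYJ7, without a transgene, and its plants came from separate calli. SDWT, labelled FP in the lists, was a T4 wild-type segregant that had lost the transgene, and pOsNAR2.1-OsNAR2.1 was a T4 homozygous line carrying OsNAR2.1 behind its own promoter. Both descended from the same transformed T0 plant, so each stands for 1 line. All 3 were compared with WYJ7 (wuyujing 7 in the labels), the untransformed japonica cultivar in which they were made, and all 3 comparisons shared the same 3 WYJ7 libraries. SDWT and pOsNAR2.1-OsNAR2.1 had passed through callus and shoot culture too and, unlike CK, through hygromycin selection and transformation. CK differed from these 2 lines also in generation, so culture, generation and growth cannot be told apart in its values. Where CK is set against these 2 lines, selection and transformation cannot be told apart from generation and growth either. Nothing in the labels says that the libraries of SDWT, pOsNAR2.1-OsNAR2.1 or WYJ7 came from separate growths, and their spread may be technical.

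DNA methylation in plants sits on cytosines in 3 sequence settings, CG, CHG and CHH. CG methylation is copied onto the new strand after each round of replication by a maintenance methyltransferase, so a gain or loss can pass through cell division and, in plants, often through meiosis. Methylated CGs are dense over transposons and repeats and occur within the bodies of many active genes, while methylation just upstream of a gene is often found where that gene is little transcribed. Regeneration from callus is known in rice to leave lasting methylation changes.

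In these lists a level is the methylation of a region in 1 library, in percent, calculated by the authors as the mean over its cytosines. A hyper-DMR is a region whose mean over the line's 3 libraries was above the WYJ7 mean, and a hypo-DMR is one whose mean was below it. Differences are in percentage points, line minus WYJ7. Read numbers per region were not given, and a counting error could therefore not be attached to a level. A level listed as 0 cannot be told from a low level in a region covered by few reads.

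The regions with 10 or more CpGs were longer than the other CpG regions of their list, but not denser in every line. Their median width was 96.5 bp in CK, 52 bp in SDWT and 76 bp for pOsNAR2.1-OsNAR2.1, against 28, 19 and 27 bp in the CpG regions with 3 to 9 CpGs of the same lists. The median density was 12.9 CpGs per 100 bp in CK, below the 13.6 of its smaller regions. In SDWT it was 22.8, against 19.4 in the smaller regions, and in pOsNAR2.1-OsNAR2.1 15.9 against 14.3. They are therefore named by their CpG count and not as CpG-dense regions. How CpGs were counted is not given in the sources used here. In 294 of the 11125 CpG regions the listed number was larger than the number of CG dinucleotides the width could hold on a single strand. Only 1 of these had 10 or more CpGs, a 13 bp region of pOsNAR2.1-OsNAR2.1 on chromosome 2 (9968919 to 9968931) listed with 10 CpGs.

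The regions of CK were mostly hypo-DMRs and those of pOsNAR2.1-OsNAR2.1 mostly hyper-DMRs, while SDWT held both in similar numbers. In CK 38 of 144 were hyper-DMRs (26.4%), beside 28.3% of all CpG regions of that list. In SDWT 23 of 43 were hyper-DMRs (53.5%), beside 51.5% of all its CpG regions. In pOsNAR2.1-OsNAR2.1 63 of 94 were hyper-DMRs (67.0%), beside 78% of all its CpG regions and 78.4% of those with 3 to 9 CpGs. The shares of CK and SDWT lay near those of their whole lists, and the share of pOsNAR2.1-OsNAR2.1 was lower than that of its list. Without 7 neighbouring hypo-DMRs on chromosome 12 the share of hyper-DMRs in pOsNAR2.1-OsNAR2.1 was 72.4% of 87 regions, and at 8 or more CpGs it was 75.9% of 228. It was 69.6% of the 56 regions with 10 to 12 CpGs and 71.0% of the 31 with 13 to 19. Only 2 of the 7 regions with 20 or more CpGs were hyper-DMRs, but 4 of these 7 were among the neighbouring hypo-DMRs on chromosome 12.

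**Figure D1:**
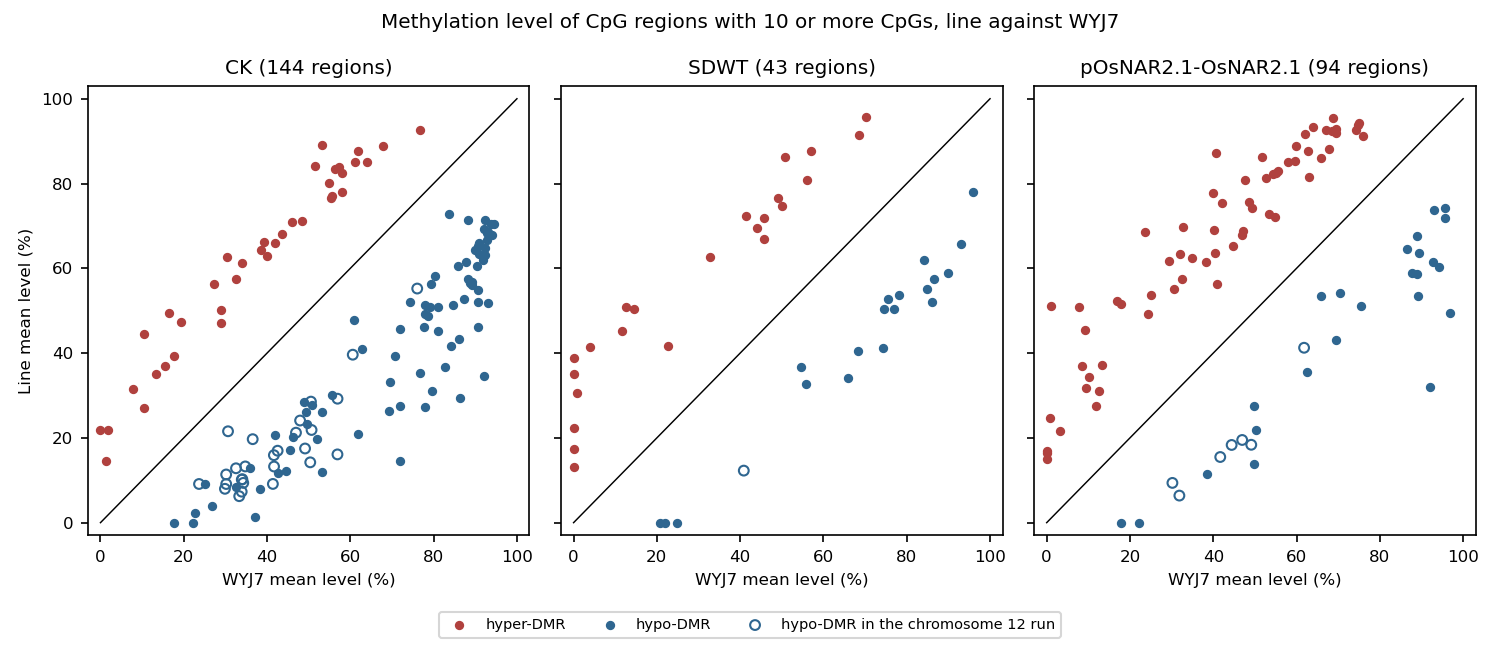
Mean methylation level (%) over 3 libraries of each line (vertical axis) and of WYJ7 (horizontal axis) for each region with 10 or more CpGs, with the line of equal levels. Points above the line are hyper-DMRs and points below it hypo-DMRs, open circles mark the run of neighbouring regions on chromosome 12, and every region with a WYJ7 level over 80% lies below the line.

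Levels end at 0% and 100%, so near both ends the scale itself leaves little room for one of the directions. Where the WYJ7 mean was over 80%, all 38 regions of CK, all 7 of SDWT and all 13 of pOsNAR2.1-OsNAR2.1 were hypo-DMRs. In the whole CpG lists the share of hyper-DMRs at that level was 1.06% for CK, 6.29% for SDWT and 16.3% for pOsNAR2.1-OsNAR2.1. Where the WYJ7 mean was under 20%, 11 of 12 regions of CK, 10 of 10 of SDWT and 16 of 17 of pOsNAR2.1-OsNAR2.1 were hyper-DMRs, beside 82.8%, 82.6% and 91.4% of all CpG regions of these lists at that level. Between 20% and 80% there was room for both directions. There, 27 of 94 regions of CK were hyper-DMRs, against 13 of 26 in SDWT and 47 of 64 in pOsNAR2.1-OsNAR2.1, beside 33.4% of CK, 47.9% of SDWT and 79.0% of pOsNAR2.1-OsNAR2.1 in the whole lists.

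The median size of the difference lay between 24.0 and 27.4 points in the 3 lists. Differences are of unweighted library means, so they can be smaller than the differences on which the authors selected. The hyper-DMRs had a median difference of 24.0 points in CK (13.3 to 36.0), 27.4 in SDWT (13.2 to 38.9) and 24.9 for pOsNAR2.1-OsNAR2.1 (15.0 to 49.99). The hypo-DMRs had a median of -26.4 points in CK (-57.5 to -9.07), -25.7 in SDWT (-33.9 to -18.1) and -26.1 for pOsNAR2.1-OsNAR2.1 (-60.1 to -12.4). A difference of at least 30 points was reached in 43 of 144 regions of CK, beside 2160 of 4962 in its whole list. In SDWT it was reached in 13 of 43, beside 1151 of 2715, and in pOsNAR2.1-OsNAR2.1 in 22 of 94, beside 1430 of 3448. The share was thus lower than in the whole list in each line. Hypo-DMRs made up 38 of the 43 in CK, beside 1672 of 2160 in its list. Hyper-DMRs made up 9 of the 13 in SDWT, beside 598 of 1151, and 14 of the 22 in pOsNAR2.1-OsNAR2.1, beside 1092 of 1430.

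The libraries of the line and of WYJ7 were fully apart in most of these regions. They did not overlap in 123 of 144 regions of CK (85.4%), beside 61.2% of all CpG regions of the list. In SDWT the libraries did not overlap in 40 of 43 regions (93.0%), beside 69.2%, and in pOsNAR2.1-OsNAR2.1 in 90 of 94 (95.7%), beside 74.6%. In CK this held for 33 of the 38 hyper-DMRs, beside 52.7% of all its hyper-DMRs, and for 90 of the 106 hypo-DMRs, beside 64.6%. In SDWT it held for 22 of the 23 hyper-DMRs, beside 68.9%, and for 18 of the 20 hypo-DMRs, beside 69.5%. In pOsNAR2.1-OsNAR2.1 it held for 60 of the 63 hyper-DMRs, beside 75.1%, and for 30 of the 31 hypo-DMRs, beside 73.1%. The share was above that of the whole list in each line, and the spread between replicates was smaller in the regions with more CpGs. The median SD of 3 libraries was 9.38 points in CK and 5.10 in WYJ7 over the CK regions, against 15.0 in CK and 5.37 in WYJ7 over the regions with 3 to 9 CpGs. For the SDWT regions it was 5.84 in SDWT and 4.86 in WYJ7, against 8.10 and 8.72 in the smaller regions. The pOsNAR2.1-OsNAR2.1 regions had a median SD of 5.39 for this line and 5.80 for WYJ7, against 7.27 and 7.40 in the smaller regions. CK thus had a wider spread than WYJ7 in both size classes, and in 98 of its 144 regions the SD of CK was the larger one.

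Just under the limit stood 35 regions of CK with 9 CpGs, of which 7 were hyper-DMRs, and just over it 48 with 10 CpGs, of which 14 were. In SDWT 8 of 15 regions with 9 CpGs and 11 of 20 with 10 CpGs were hyper-DMRs. In pOsNAR2.1-OsNAR2.1 the counts were 22 of 28 with 9 CpGs and 23 of 32 with 10 CpGs.

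Described first are, for each line, the largest gains and losses among the regions whose libraries did not overlap with WYJ7. The largest gain in CK, on chromosome 5 (chr5:17310680-17310713, 10 CpGs, no gene annotated), had 84.8%, 92.3% and 90.3% in CK, against 48.8%, 47.7% and 62.8% in WYJ7. A region on chromosome 1 with 18 CpGs (chr1:8497555-8497649, no gene annotated) had 51.7%, 39.1% and 42.7% in CK, against 8.81%, 10.6% and 12.1% in WYJ7. The third (chr9:504876-504941, 10 CpGs) lay upstream of EPlOSAG00000049031 and had 49.6%, 39.0% and 59.8% in CK, against 17.0%, 13.5% and 18.6% in WYJ7.

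The largest of these losses in CK were bigger than the largest gains. A region on chromosome 12 with 14 CpGs (chr12:4677562-4677699, no gene annotated) had 47.4%, 36.3% and 20.4% in CK, against 92.1%, 94.9% and 89.5% in WYJ7. The same interval was listed for pOsNAR2.1-OsNAR2.1, with 42.0%, 0% and 54.1% in that line against the same WYJ7 levels, so that the mean of 32.0% ± 28.4 (SD, n = 3) hid a library at 0. Upstream of OS07G0510400 (chr7:19456647-19456700, 12 CpGs) the CK libraries were close together, at 13.2%, 15.4% and 15.0%, against 59.3%, 76.1% and 80.4% in WYJ7. The third such loss (chr1:12314589-12314693, 11 CpGs, no gene annotated) was 30.4%, 0% and 51.2% in CK, against 57.8%, 88.4% and 87.8% in WYJ7. The difference upstream of OS07G0510400, -57.4 points, thus came with an SD of 1.18 points in CK, the smallest of these 3.

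In SDWT, the largest gain was upstream of EPlOSAG00000031523 (chr5:28766980-28767018, 10 CpGs), with 37.7%, 34.3% and 44.7% in SDWT, against 0% in all 3 WYJ7 libraries. An exon of OS05G0227100 (chr5:7732326-7732410, 10 CpGs) had 56.2%, 51.0% and 45.8% in SDWT, against 11.54%, 4.67% and 21.3% in WYJ7. It was the only hyper-DMR among the 2 exonic regions of SDWT. Upstream of EPlOSAG00000035060 (chr1:39193028-39193065, 10 CpGs) the levels were 51.1%, 28.2% and 45.2% in SDWT, against 0%, 12.03% and 0% in WYJ7. The pOsNAR2.1-OsNAR2.1 list held the same place (chr1:39193002-39193065, 12 CpGs), at 44.8%, 42.1% and 24.1% in that line, against 0%, 19.1% and 6.57% in WYJ7.

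The 3 largest such losses in SDWT were all upstream regions. At OS05G0500300 (chr5:24622951-24623045, 13 CpGs) the levels were 45.8%, 59.3% and 51.4% in SDWT, against 85.7%, 87.1% and 85.3% in WYJ7. At EPlOSAG00000045992 (chr6:10110345-10110424, 11 CpGs) they were 53.3%, 37.7% and 32.7% in SDWT, against 70.3%, 73.8% and 78.5% in WYJ7. At OS05G0456500 (chr5:22423437-22423482, 12 CpGs) they were 18.99%, 34.8% and 48.8% in SDWT, against 67.8%, 65.6% and 64.4% in WYJ7. The SDWT libraries were spread more widely there (SD 14.9 points) than those of WYJ7 (SD 1.72 points), yet the groups did not overlap.

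In pOsNAR2.1-OsNAR2.1, the largest gain lay on chromosome 9 (chr9:15813945-15813977, 10 CpGs, no gene annotated), with 46.5%, 52.4% and 54.3% in the line, against 0%, 3.17% and 0% in WYJ7. Upstream of OS01G0865100 (chr1:37446084-37446146, 10 CpGs) the line had 87.7%, 85.0% and 89.2%, against 50.1%, 18.3% and 53.6% in WYJ7. On chromosome 5 (chr5:19874053-19874109, 16 CpGs, no gene annotated) it had 66.2%, 64.9% and 74.7%, against 27.3%, 24.3% and 19.2% in WYJ7. The wide range at OS01G0865100 came from the WYJ7 side, where replicate 2 was low.

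After the chromosome 12 region already given, the next losses in pOsNAR2.1-OsNAR2.1 were both on chromosome 2. The first (chr2:4771165-4771195, 12 CpGs, no gene annotated) had 26.5%, 63.1% and 58.9% in the line, against 96.1%, 96.9% and 97.5% in WYJ7. The second (chr2:10072345-10072434, 12 CpGs, no gene annotated) had 15.4%, 10.6% and 15.8% in the line, against 36.7%, 44.6% and 68.2% in WYJ7. CK was listed for most of the same interval (chr2:10072373-10072434, 10 CpGs), with 34.3%, 32.1% and 19.4% in CK, against 35.1%, 43.0% and 68.2% in WYJ7.

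**Figure D2:**
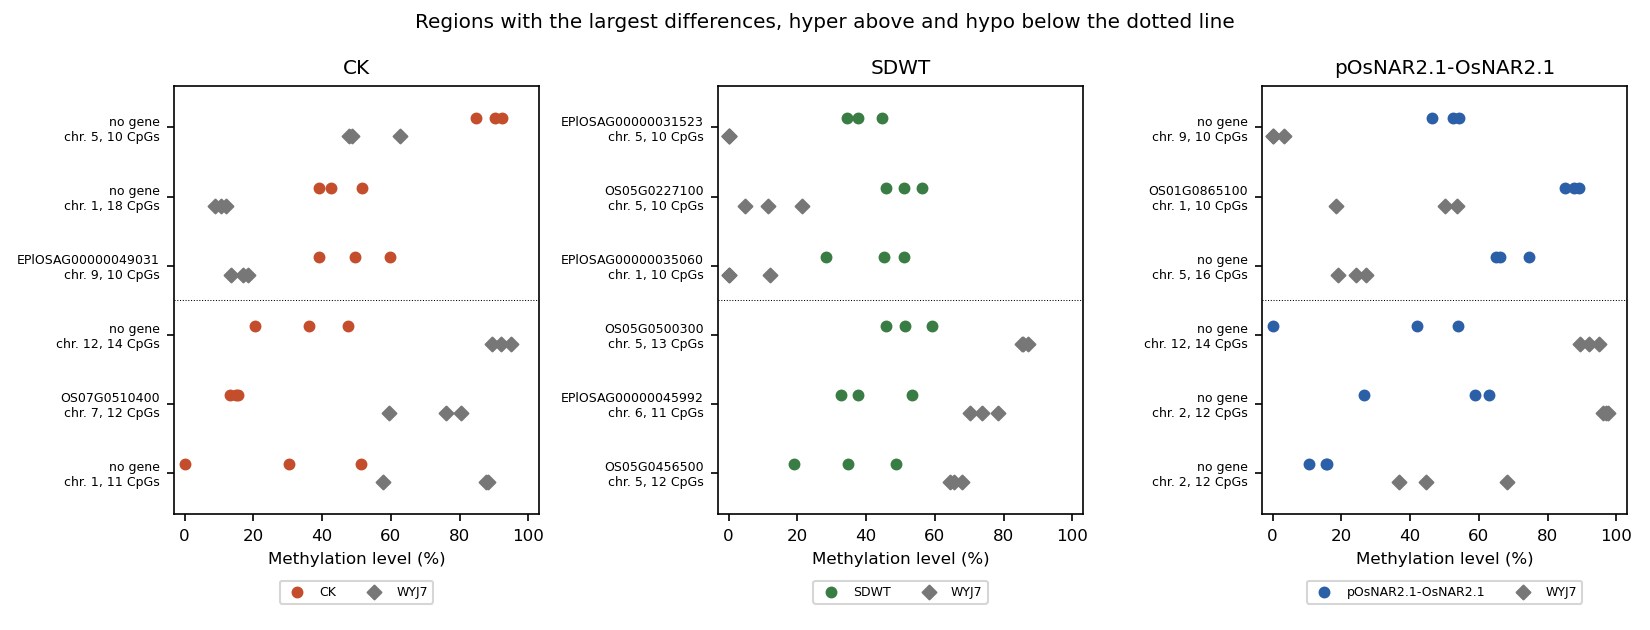
Methylation level (%) in each of the 3 libraries of the line (circles) and of WYJ7 (diamonds) for the 3 regions with the largest gain (above the dotted line) and the 3 with the largest loss (below it) in each line among the regions whose libraries did not overlap with WYJ7, named by the annotated gene, chromosome and number of CpGs. Single libraries listed at 0, of CK as well as pOsNAR2.1-OsNAR2.1, stand apart from the other libraries of their group.

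A large part of the CK set lay in a single stretch of chromosome 12. Between 20504042 and 20678611, a span of 174.57 kb, 27 of the 144 regions of CK were found (18.75%), all of them hypo-DMRs. They held 10 to 81 CpGs, covered 7.45 kb together, and made up 18 of the 25 CK regions with 20 or more CpGs. The mean level over these 27 regions was 15.1%, 17.4% and 19.9% in the CK libraries, against 41.6%, 45.6% and 38.4% in the WYJ7 libraries. Every CK library was therefore below every WYJ7 library in this mean, with 17.5% ± 2.39 in CK and 41.9% ± 3.61 in WYJ7 (SD, n = 3 each). In replicates 1 and 2 of CK all 27 regions were below the lowest WYJ7 library, and in replicate 3 it was 25 of 27. The libraries thus did not overlap in 25 of the 27. This was so in 90 of all 106 hypo-DMRs of CK with 10 or more CpGs, and in 64.6% of all hypo-DMRs of its list. The differences ran from -40.8 to -9.07 points. Of the 4818 CpG regions of CK with 3 to 9 CpGs, 16 lay in this stretch. All 16 were hypo-DMRs as well, beside 71.6% of the 4818.

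The region with the most CpGs in all 3 lists stood at the start of the stretch. It spanned 873 bp (chr12:20504042-20504914), held 81 CpGs, and was annotated upstream of EPlOSAG00000008024. Its levels were 10.7%, 8.74% and 11.3% in CK, against 28.0%, 38.4% and 35.8% in WYJ7. The region with 74 CpGs (chr12:20619197-20619723), upstream of EPlOSAG00000045543, had 5.92%, 3.54% and 21.0% in CK, against 27.4%, 38.8% and 35.7% in WYJ7. The next, with 54 CpGs and no gene annotated (chr12:20620279-20620648), had 5.35%, 25.7% and 16.7% in CK, against 39.8%, 53.7% and 31.4% in WYJ7. WYJ7 itself was only partly methylated in these 3 regions, and so the losses began from middle levels. Over the 27 regions the median WYJ7 mean was 41.4%, against 79.3% in the 79 hypo-DMRs of CK outside the stretch. Of the 27 regions 16 had an annotated gene. At OS12G0524750 there were 3 of them, 2 upstream and 1 in an exon, the exonic one (chr12:20548297-20548541, 26 CpGs) with 29.4%, 19.9% and 38.4% in CK, against 53.1%, 62.5% and 55.1% in WYJ7.

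All regions of pOsNAR2.1-OsNAR2.1 in this stretch were hypo-DMRs as well, but there were fewer of them. It had 7 regions with 10 to 38 CpGs and 11 with 3 to 9 CpGs, all 18 lower than WYJ7. In its whole list hypo-DMRs made up 33.0% of the regions with 10 or more CpGs and 21.6% of those with 3 to 9. The mean over the 7 regions was 13.8%, 19.5% and 21.9% in pOsNAR2.1-OsNAR2.1, against 44.7%, 48.4% and 38.1% in WYJ7. Its 3 regions with the most CpGs in the whole list were here. That with 38 CpGs (chr12:20526831-20527136), upstream of EPlOSAG00000009066, had 14.2%, 20.3% and 20.5% in the line, against 46.2%, 48.3% and 38.8% in WYJ7. That with 32 CpGs (chr12:20518274-20518587, no gene annotated) had 36.6%, 48.6% and 38.6% in the line, against 65.4%, 63.4% and 56.6% in WYJ7.

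The region with 30 CpGs (chr12:20660968-20661135, no gene annotated) was listed for CK and pOsNAR2.1-OsNAR2.1 with the same limits. It had 9.16%, 8.12% and 22.5% in CK and 12.01%, 14.6% and 19.9% in pOsNAR2.1-OsNAR2.1, against 37.7%, 54.4% and 33.0% in WYJ7. Upstream of EPlOSAG00000045543 (chr12:20618750-20619057, 20 CpGs) it was 12.3%, 11.1% and 3.90% in CK and 6.84%, 13.4% and 7.93% in pOsNAR2.1-OsNAR2.1, against 29.1%, 31.3% and 30.2% in WYJ7. Upstream of EPlOSAG00000045609 (chr12:20578873-20579038, 15 CpGs) it was 26.8%, 25.7% and 0% in CK and 6.73%, 14.2% and 34.2% in pOsNAR2.1-OsNAR2.1, against 59.1%, 48.0% and 40.3% in WYJ7. All libraries of both lines were below all WYJ7 libraries in these 3 regions, and pOsNAR2.1-OsNAR2.1 differed from CK by 2.24, 0.26 and 0.88 points, less than the spread of the libraries.

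The next such place (no gene annotated) was listed with 17 CpGs for CK (chr12:20620883-20621075) and 15 for pOsNAR2.1-OsNAR2.1 (chr12:20620931-20621075). CK had 0.75%, 19.2% and 14.1%, against 27.8%, 38.3% and 24.5% in WYJ7. pOsNAR2.1-OsNAR2.1 had 7.71%, 0% and 11.45%, against 32.1%, 38.5% and 24.96% in WYJ7. In SDWT a single region of the stretch was listed, with 17 CpGs in an exon of EPlOSAG00000045543 (chr12:20619561-20619612). Its levels were 8.84%, 13.4% and 14.6% in SDWT, against 31.6%, 44.2% and 46.8% in WYJ7. This interval lay wholly within the CK region with 74 CpGs, which was annotated as upstream of the same gene. Regions that were not called are not in these lists, so the levels of SDWT over the rest of the stretch are unknown.

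**Figure D3:**
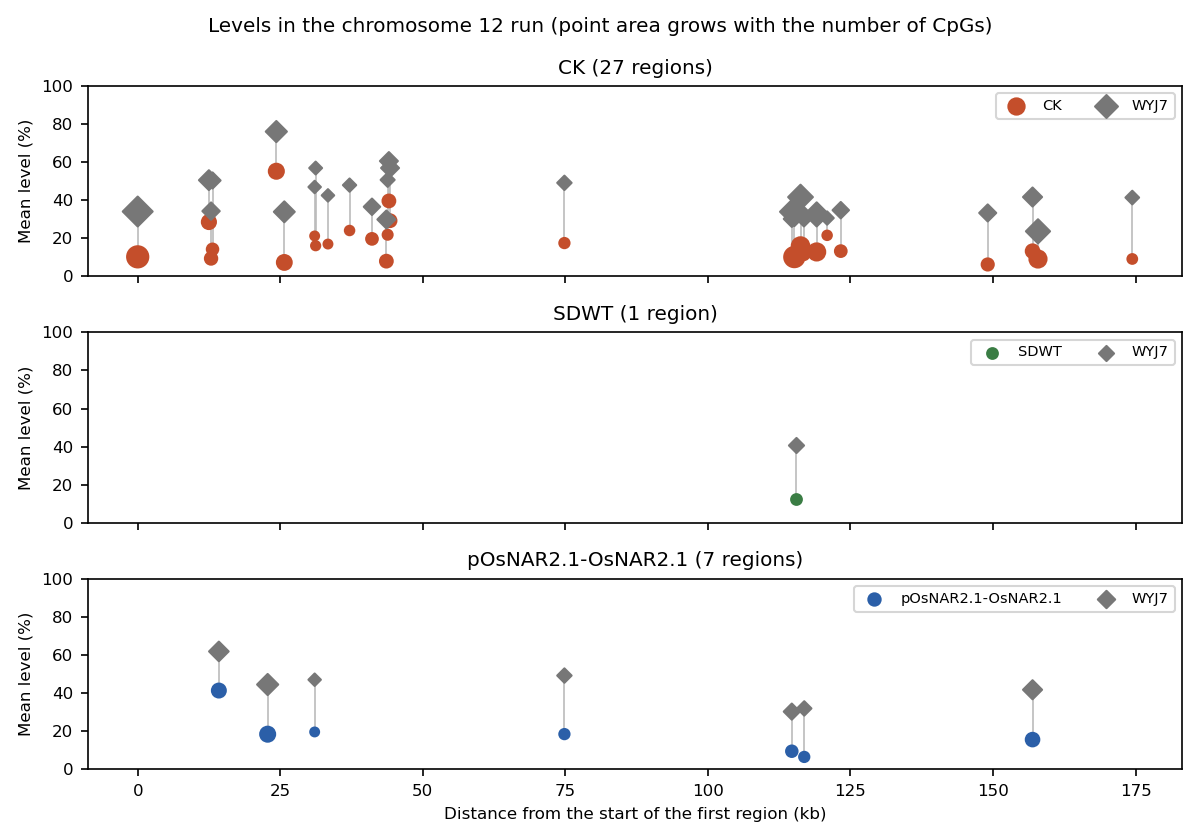
Mean methylation level (%) of each region with 10 or more CpGs in the chromosome 12 stretch, in the line (circles) and in WYJ7 (diamonds, joined by a grey bar), against the distance in kb from the start of the first region, with a panel for each line. All 27 regions of CK, the 1 of SDWT and the 7 of pOsNAR2.1-OsNAR2.1 lie below WYJ7.

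Without the stretch, the share of hyper-DMRs was 32.5% of 117 regions in CK, 54.8% of 42 in SDWT and 72.4% of 87 in pOsNAR2.1-OsNAR2.1. No other place held a comparable number. With neighbours joined up to 100 kb, no other group had more than 2 regions in any line, and SDWT had none at all. Outside the stretch, the largest region of CK by CpGs (named after its values were seen) was upstream of OS01G0688000 (chr1:28381906-28382257, 44 CpGs), with 0%, 1.89% and 9.71% in CK, against 22.2%, 28.3% and 29.8% in WYJ7.

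In SDWT, the regions with the most CpGs were of both directions. A region with 20 CpGs (chr3:4252965-4253045, no gene annotated) had 72.7%, 72.6% and 72.0% in SDWT, against 34.9%, 58.3% and 31.4% in WYJ7. A region with 17 CpGs on chromosome 2 (chr2:16678035-16678112, no gene annotated) had 54.3%, 53.7% and 53.1% in SDWT, against 73.0%, 80.8% and 81.0% in WYJ7. The SDWT libraries lay within a narrow range in both, with an SD of 0.37 points in the gain and 0.64 in the loss, while the WYJ7 libraries had an SD of 14.6 and 4.56 points.

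Most of the regions lay in or near an annotated gene. In CK 70 were upstream, 7 in an exon, 8 in an intron and 59 without a gene. In SDWT 25 were upstream, 2 in an exon, 6 in an intron and 10 without a gene, and in pOsNAR2.1-OsNAR2.1 46, 6, 7 and 35. The annotated share was 59.03% in CK, 76.7% in SDWT and 62.8% for pOsNAR2.1-OsNAR2.1, against 55.8%, 56.6% and 59.1% of the regions with 3 to 9 CpGs. Upstream regions of CK were hyper-DMRs in 17 of 70, those of SDWT in 13 of 25 and those of pOsNAR2.1-OsNAR2.1 in 32 of 46, so each line kept in its upstream regions about the balance of its whole set. The distance counted as upstream is not given in the sources used here. The 281 regions carried 154 gene IDs, 86 starting with OS and 68 with EPlOSAG. No gene annotation of IRGSP-1.0 was available here to look them up, so no gene names or functions are given.

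Exonic and intronic regions were few, and named ones are given by the rule for shared places. In an exon of OS01G0899425, CK (chr1:39121969-39122125, 14 CpGs) had 20.4%, 21.4% and 21.2%, against 59.5%, 53.6% and 72.5% in WYJ7. pOsNAR2.1-OsNAR2.1 (chr1:39121969-39122126, 13 CpGs) had 45.9%, 31.1% and 30.0% there, against 59.9%, 55.2% and 72.2% in WYJ7. Both lines were below all WYJ7 libraries, and every CK library was below every pOsNAR2.1-OsNAR2.1 library.

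Certain places were listed for more than 1 line. As the lists share the WYJ7 libraries, a high or low WYJ7 sample enters each of them, and the number of shared places is not read as a result. Upstream of OS01G0828100 all 3 lines were higher. CK had 90.2%, 78.9% and 97.7% (chr1:35430007-35430072, 13 CpGs), against 72.3%, 58.0% and 72.9% in WYJ7. SDWT had 95.3%, 91.6% and 87.5% and pOsNAR2.1-OsNAR2.1 94.5%, 92.2% and 90.3% (both chr1:35429972-35430072, with 23 and 28 CpGs listed), against 74.5%, 58.5% and 72.5% in WYJ7. The CpG number thus differed between lists for the same limits. It was the region with the most CpGs in SDWT.

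Upstream of EPlOSAG00000007914 (chr7:17654469-17654586, 15 CpGs in CK and pOsNAR2.1-OsNAR2.1) all libraries of both lines were listed at 0%, against 15.1%, 45.7% and 5.65% in WYJ7. SDWT (chr7:17654469-17654564, 14 CpGs) was at 0% in its 3 libraries too, against 14.1%, 43.4% and 4.92% in WYJ7. The groups did not overlap, but the SD of the WYJ7 libraries in the CK list, 20.9 points, was nearly as large as the difference of -22.1 points. A level of 0 in all 3 libraries of the line was listed in 2 of 144 regions of CK, beside 340 of 4962 in its whole list. For SDWT it was 3 of 43, beside 340 of 2715, and for pOsNAR2.1-OsNAR2.1 2 of 94, beside 249 of 3448. A level of 0 in all 3 WYJ7 libraries was listed in 1 region of CK, 5 of SDWT and 3 of pOsNAR2.1-OsNAR2.1. In the whole lists it was 359 of CK, 345 of SDWT and 573 of pOsNAR2.1-OsNAR2.1. All these shares were lower in the regions with 10 or more CpGs than in the whole lists.

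In 3 places 2 lines were listed in opposite directions. Upstream of OS08G0558000 (chr8:27927389-27927437, 16 CpGs) CK had 77.0%, 49.0% and 67.1% and pOsNAR2.1-OsNAR2.1 24.5%, 4.48% and 5.19%, against 36.3%, 39.9% and 39.3% in WYJ7. The WYJ7 libraries lay close together between the lines. In an intron of OS01G0361500 (chr1:14736973-14737020, 10 CpGs) CK had 40.9%, 40.9% and 41.5% and pOsNAR2.1-OsNAR2.1 87.2%, 89.97% and 85.7%, against 56.3%, 55.8% and 76.3% in WYJ7. Here the libraries of CK and pOsNAR2.1-OsNAR2.1 were each close together, and those of WYJ7 lay between.

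Upstream of EPlOSAG00000045033 CK (chr7:14820507-14820577, 14 CpGs) had 32.9%, 32.4% and 12.9%, against 61.9%, 43.0% and 42.8% in WYJ7. SDWT (chr7:14820531-14820577, 14 CpGs) had 64.6%, 81.8% and 62.1% there, against 58.0%, 37.9% and 36.2% in WYJ7. Replicate 1 of WYJ7 was the highest in both lists. As these places were found by their opposite calls, the gap between the lines is a description.

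**Figure D4:**
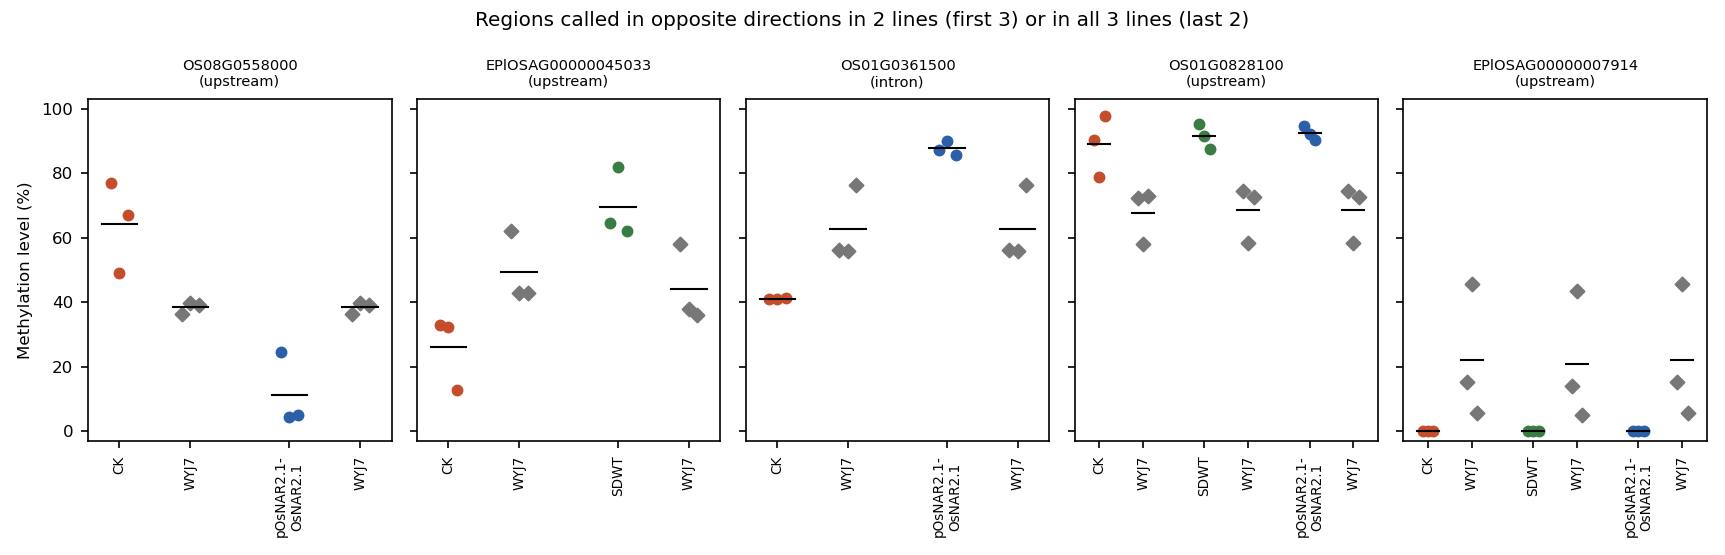
Methylation level (%) in each library of the lines (circles) and of WYJ7 (diamonds), with the mean as a bar, for the 3 places listed in opposite directions in 2 lines and 2 places listed in all 3 lines. CK and pOsNAR2.1-OsNAR2.1 lie on either side of WYJ7 at OS08G0558000 and OS01G0361500, CK and SDWT at EPlOSAG00000045033.

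The lines were also compared with each other over the regions that overlap between 2 lists. These places had been called in both lines against the same WYJ7 libraries, mostly in the same direction. A small difference between the lines is thus in part built in, and a large one where the calls were opposite. The p-values below therefore cannot tell whether the lines differ and stand as a description. Each library was given its mean level over the overlapping regions. SDWT had 42.2%, 46.7% and 41.1% and CK 32.2%, 28.7% and 32.9% over 4 pairs of regions, a difference of 12.02 points with no overlap of libraries (two-sided exact permutation test, p = 0.1, adjusted p = 0.3 over 3 comparisons). A test of 3 libraries against 3 cannot give a p under 0.1. pOsNAR2.1-OsNAR2.1 had 34.1%, 29.1% and 34.2% and CK 34.9%, 32.0% and 31.5% over 15 pairs, a difference of -0.35 points (exact permutation p = 0.8, adjusted p = 0.8). In this mean 2 pairs called in opposite directions nearly cancelled. They differed by -53.0 points upstream of OS08G0558000 and by 46.6 points in an intron of OS01G0361500, so the mean does not show likeness at each place. pOsNAR2.1-OsNAR2.1 had 54.3%, 52.4% and 48.6% and SDWT 59.3%, 49.0% and 54.9% over 6 pairs, a difference of -2.63 points (exact permutation p = 0.4, adjusted p = 0.6). The mean differences of -0.35 and -2.63 points were within the spread of the libraries. For SDWT and pOsNAR2.1-OsNAR2.1, each 1 line, this spread may be technical. The difference of SDWT and CK came mainly from 1 of the 4 pairs, upstream of EPlOSAG00000045033, which had been called in opposite directions and differed by 43.4 points. The other 3 pairs, each called in the same direction in both lines, differed by 2.13, 2.55 and 0 points. Without the opposite pair the mean difference was 1.56 points. That pair was left out after its value was seen, so no test is given.

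At single places the values of 25 pairs of lines stand side by side as a description, as the places were chosen by their calls. The difference was under 10 points in 19 of them, of which 4 had 0% in all libraries of both lines. The 6 others were the 3 places of opposite calls, which this choice sets apart, and 3 with differences of 14.6, -14.7 and -17.7 points. In the 5 pairs of pOsNAR2.1-OsNAR2.1 and CK on the chromosome 12 stretch the difference lay between -4.98 and 2.24 points.

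CK differed from the other lines in how its libraries shared a change. All 3 libraries lay 20 points or more beyond the mean of WYJ7, on the side of the call, in 50 of 144 regions of CK (34.7%), against 21 of 43 in SDWT (48.8%) and 49 of 94 in pOsNAR2.1-OsNAR2.1 (52.1%). Over all CpG regions of the lists the shares were 31% in CK, 45.2% for SDWT and 47.8% for pOsNAR2.1-OsNAR2.1. In CK another 43 regions (29.9%) reached this distance in replicates 1 and 3 but not in replicate 2, beside 32% of all CpG regions of CK, so that this holds for the CK list as a whole and not for the larger regions in particular. The same pattern was found in 5 regions of SDWT, beside 10.1% of its list, and in 11 of pOsNAR2.1-OsNAR2.1, beside 9.8%. Of these 43, the level of replicate 2 was within 10 points of the WYJ7 mean in 18, and on the other side of it in 7. Every other replicate was also the only one short of the 20 points in some regions. These were at most 18 of 144 in CK (12.5%), 8 of 43 in SDWT (18.6%) and 11 of 94 for pOsNAR2.1-OsNAR2.1 (11.7%). The median gap between libraries was 10.7 points for CK replicates 1 and 2 and 13.1 for replicates 2 and 3, against 7.75 for replicates 1 and 3. Among WYJ7 libraries over the same regions it was 5.03 to 5.49 points.

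**Figure D5:**
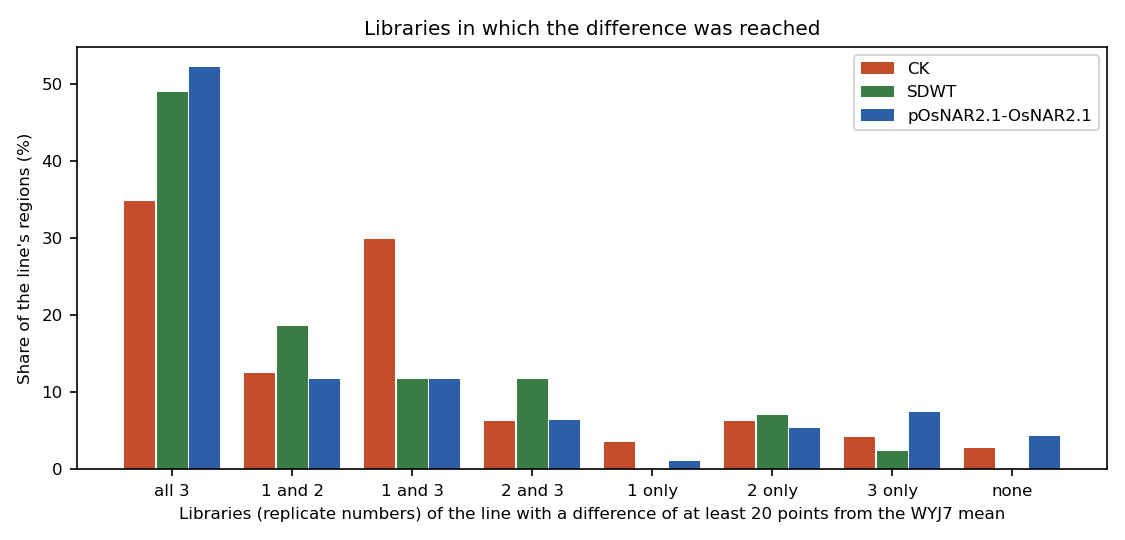
Share of the regions of each line (%) by the libraries whose level lay 20 points or more beyond the mean of WYJ7, on the side of the call. The bar for replicates 1 and 3 is 29.9% in CK, 11.6% in SDWT and 11.7% for pOsNAR2.1-OsNAR2.1.

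Among these regions, replicate 2 of CK also held most of the single levels of 0. They were not counted over the whole lists, so this is not read as particular to the larger regions. A level of 0 in a single library, with at least 20% in the other libraries of its group, was found in 8 regions for CK replicate 2 and 1 for replicate 3. It was found in 1 region each for pOsNAR2.1-OsNAR2.1 replicates 1 and 2, in none of SDWT, and in 1 region each for WYJ7 replicates 1 and 2 over the SDWT regions. An example, named after its values were seen, was an intron of OS08G0299400 (chr8:12268066-12268125, 10 CpGs), with 69.1%, 0% and 69.6% in CK, against 87.2%, 93.5% and 91.3% in WYJ7. The reverse was seen as well. A region on chromosome 9 (chr9:12093283-12093373, 14 CpGs, no gene annotated), also chosen by its values, had 0%, 88.5% and 0% in CK, against 91.7%, 92.5% and 74.6% in WYJ7. Its difference of -56.7 points was among the largest of CK, but its libraries overlapped with those of WYJ7. There CK replicate 2 was like WYJ7. Without CK replicate 2 the libraries did not overlap in 94.4% of the CK regions, and the median SD of CK was 5.48 points. The cause was not tested.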

How the data were processed

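WGBS levels of 12 libraries were used, and 3 MeDIP-seq samples were not analysed here. Per the paper, WGBS reads were mapped to IRGSP-1.0 with Bismark 0.9.0. The submitters' processing notes also name Bowtie2 2.1.0, which the paper gives for the MeDIP-seq reads. The authors removed cytosines with a depth under 5 and used methylKit and eDMR to call DMRs of each line against WYJ7. Only called regions are in the deposited lists, with the level in percent in each of 6 libraries. The authors calculated it as the mean over the region's cytosines of the methylated share of reads at each, with no further normalization between libraries. Reads per region were not given, so the precision of a level is unknown. The authors also deposited their own difference, p-value, q-value, count of differentially methylated cytosines and direction, and these were not used. The deposited width and number of CpGs were taken as other values.

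Direction was recomputed from library means. Regions named were, in each line, the 3 largest differences per direction without overlap, the 3 with most CpGs, and those overlapping by at least 1 bp between lines, up to 12 by CpGs. Both the regions and the lists were chosen with earlier results of these data known. Neighbours up to 100 kb apart formed a stretch. Tests were two-sided exact permutation tests with Benjamini-Hochberg adjustment, tested on simulated data. Alternatives were other CpG limits, merging within 1000 bp, a difference of 30 points, medians, another overlap and each replicate left out. Calculations used pandas 2.3.3, numpy 2.4.6 and scipy 1.17.1, and plots matplotlib 3.10.9, in Python 3.11.15. No genome sequence of IRGSP-1.0 was used here, so no sequence is shown.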

Additional observations from a re-analysis of the deposited data

Results flagged for a closer look

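In 3 places every library of a line moved one way from the WYJ7 mean and every library of another line the opposite way, and the difference between the lines was not tested further, since the places were found by it. Upstream of OS08G0558000 (chr8:27927389-27927437) the difference from WYJ7 was 25.9 points in CK and -27.1 points in pOsNAR2.1-OsNAR2.1. Upstream of EPlOSAG00000045033 it was -23.2 points in CK (chr7:14820507-14820577) and 25.5 points in SDWT (chr7:14820531-14820577). In an intron of OS01G0361500 (chr1:14736973-14737020) it was -21.7 points in CK and 24.9 points in pOsNAR2.1-OsNAR2.1.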

How the results depend on the processing

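With a difference of at least 30 points the share of hyper-DMRs was 11.6% in CK and 69.2% in SDWT, and the median differences became 33.1 and -35.9 points in CK, 35.4 and -32.4 in SDWT and 35.8 and -34.9 for pOsNAR2.1-OsNAR2.1 (hyper- and hypo-DMRs), since the smaller differences were removed. At 8 or more CpGs the hyper share of pOsNAR2.1-OsNAR2.1 was 75.9% and the median WYJ7 SD over the SDWT regions 6.68 points. At 12 or more CpGs 100% of the SDWT regions had no overlap, the median gain was 29.7 points in SDWT and 23.7 for pOsNAR2.1-OsNAR2.1, and the median SD of pOsNAR2.1-OsNAR2.1 was 5.84 points. With medians of 3 libraries the median gain of SDWT was 29.6 points and the median loss of pOsNAR2.1-OsNAR2.1 -24.8. Without the chromosome 12 stretch, an alternative chosen after seeing the data, the median WYJ7 SD over the CK regions was 4.84 points.

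Leaving out each replicate in turn gave 86.1% to 94.4% of CK regions and 93.0% to 97.7% of SDWT regions without overlap. The median loss was -27.6 to -24.7 points in SDWT and -26.7 to -24.1 for pOsNAR2.1-OsNAR2.1, and the median gain of pOsNAR2.1-OsNAR2.1 was 23.9 to 25.3. The median SD was 5.48 to 9.26 points in CK (the lowest without replicate 2) and 3.56 to 3.88 in WYJ7 over its regions, 4.26 to 6.13 in SDWT and 3.51 to 4.11 in WYJ7, and 3.82 to 4.07 in pOsNAR2.1-OsNAR2.1 and 3.97 to 4.98 in WYJ7. An SD of 2 values is smaller by construction. A single region of CK changed direction, without replicate 2.

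Between lines, the difference of pOsNAR2.1-OsNAR2.1 and CK was -1.21 to 1.34 points with a replicate left out, and positive without CK replicate 1 (0.69) and without pOsNAR2.1-OsNAR2.1 replicate 2 (1.34). That of pOsNAR2.1-OsNAR2.1 and SDWT was 0.38 points under a stricter rule of overlap. Without pairs called in opposite directions, chosen after seeing the data, it was 1.56 points for SDWT and CK and 0.095 for pOsNAR2.1-OsNAR2.1 and CK. The cause was not tested. The labels do not say whether replicate numbers pair plants or share a batch. Of 9 same-number pairs of line and WYJ7, 1 correlated best with its own number, with r from -0.13 to 0.15 across regions. With the replicate block (exact sign-flip test, smallest p 0.25) p was 0.25 for SDWT and CK, 0.75 for pOsNAR2.1-OsNAR2.1 and CK and 0.5 for pOsNAR2.1-OsNAR2.1 and SDWT, and the differences stayed 12.02, -0.35 and -2.63 points. As the places were chosen by their calls, these p-values cannot tell whether the lines differ. The depth of each region was unknown, which limits every single level.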
